A study of Mus musculus with 12 samples.

Results

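Kidneys injured by UIR were compared between PTCKO mice, in which Wwp2 was deleted conditionally in the proximal tubule, and WT mice, which carry the same floxed Wwp2 alleles (WWP2 fl/fl) with the gene intact. The comparison holds the 3 PTCKO UIR libraries and the 3 WT UIR libraries, 6 of the 12 kidney RNA-seq libraries of the series; the other 6 are 3 PTCKO Sham and 3 WT Sham libraries. All mice were males, 8 weeks old, described as on a C57BL/6J background. The labels do not spell out UIR, which the series uses as a model of acute kidney injury that passes into chronic disease. The time between surgery and collection, the Cre driver and the floxed exon are missing from the sources used here. Every group had fewer libraries than the mice the series describes, and no label ties a library to a mouse, so p-values measure only the spread between these libraries.

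Wwp2 is a HECT-type E3 ubiquitin ligase of the NEDD4 family, which attaches ubiquitin to target proteins. The proximal tubule is the part of the nephron that recovers glucose, amino acids, phosphate and filtered protein. It is rich in mitochondria and peroxisomes and runs mainly on fatty acid oxidation. After ischaemic injury its cells lose transporters and metabolic enzymes and take up injury markers, while fibroblasts, capillary cells and immune cells around them change in number and state. The series asks what loss of Wwp2 in this segment does during that passage.

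Values below are FPKM (fragments scaled by transcript length and library size), given as levels for libraries 1, 2 and 3 of a group in that order. Log2 fold changes are PTCKO UIR over WT UIR from edgeR's quasi-likelihood test on the counts, so a positive value means higher in PTCKO UIR. Genes with an adjusted p below 0.05 count as called. The kidneys were read as whole tissue, so fewer cells of a type and less RNA per cell cannot be told apart in any value below.

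Wwp2 itself (chromosome 8, GRCm38.p6) did not separate the genotypes downwards. Its level was 22.3, 19.3 and 20.5 FPKM in PTCKO UIR, against 17.6, 19.1 and 17.9 FPKM in WT UIR, and every PTCKO UIR library was above every WT UIR library. The log2 fold change was 0.25 (SE 0.07, adjusted p = 0.037), a call that was lost in 4 rescaled or normalised-value fits and in 6 of the 12 fits that left out 1 library. Whether a deletion in 1 cell type lowers a reading over the whole gene in whole kidney was not tested. The genotype of each library therefore rests on its label. Of the 8 ligases of the family that could be tested, Wwp2 was higher and Hecw2, a low-abundance member, was lower. That is 12.5% in each direction, against 9.30% of all genes higher and 4.50% lower. Hecw2 was at -0.90 (adjusted p = 0.00633), with 0.500, 0.750 and 0.610 FPKM in PTCKO UIR, against 1.34, 1.19 and 1.03 FPKM in WT UIR.

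The libraries differed by more than genotype label and surgery. Mouse strains carry different copies of the adult beta-globin genes: Hbb-bs and Hbb-bt mark the haplotype of C57BL/6 mice and Hbb-b1 and Hbb-b2 that of several other inbred strains. Hbb-b1 stood at 2.19, 0.790 and 2.82 FPKM in PTCKO UIR, against 389.7, 678 and 677 FPKM in WT UIR. As a share of the estimated counts of the 4 genes, Hbb-b1 and Hbb-b2 made up 0.596% (95% Wilson interval 0.398% to 0.893%), 0.0887% (0.0467% to 0.169%) and 0.198% (0.140% to 0.279%) in PTCKO UIR. In WT UIR the shares were 53.6% (52.5% to 54.6%), 54.0% (53.2% to 54.8%) and 99.5% (99.3% to 99.7%). After sham they were 52.5%, 1.09% and 48.1% in PTCKO, against 52.9%, 99.6% and 2.46% in WT. The 4 genes are near-identical copies whose reads were divided by estimate, and the intervals cover counting error only. All 3 PTCKO UIR libraries were thus below 1% and all 3 WT UIR libraries above 50%, whereas both kinds occurred in each sham group. Differences between mice that go with this marker and differences of the Wwp2 genotype cannot be told apart after UIR. Nnt, a mitochondrial transhydrogenase that is mutated in C57BL/6J, had 20.1, 14.9 and 24.9 FPKM in PTCKO UIR and 21.4, 19.0 and 17.4 FPKM in WT UIR, with overlapping groups (log2 fold change 0.13, adjusted p = 0.713).

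**Figure D1:**
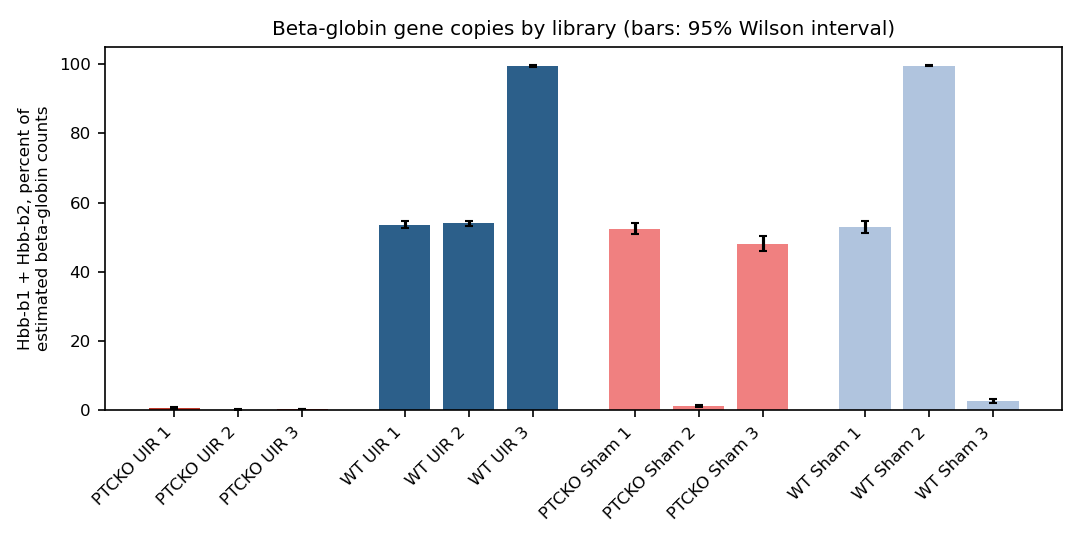
Share of Hbb-b1 and Hbb-b2 in the estimated counts of 4 beta-globin genes, in percent, with the 95% Wilson interval, for each of the 12 libraries. The 3 PTCKO UIR libraries lie below 1%, the WT UIR libraries between 53.6% and 99.5%, and each sham group holds low and high libraries.

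Totals were 15495163 to 19610217 expected counts in PTCKO UIR and 16779444 to 19645743 in WT UIR. Among the 6 libraries the leading axis of a principal component analysis, with 54.5% of the variance, separated the genotypes, with PTCKO UIR 2 and WT UIR 2 nearest to each other across the groups. The other 4 libraries stood further out on it. Of kidney markers, the loop protein Umod was at 283, 232 and 504 FPKM in PTCKO UIR and 268, 420.5 and 278 FPKM in WT UIR.

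Of 15322 genes tested, 2115 were called between PTCKO UIR and WT UIR, which is 13.8% of genes. Of these, 1425 were higher (9.30%) and 690 were lower (4.50%) in PTCKO UIR. Most differences were moderate, with a median absolute log2 fold change of 0.62 among the calls. A change of at least 2-fold was seen in 368 higher and 130 lower genes, and one of at least 4-fold in 33 and 27. The groups did not overlap in scaled counts by library size (CPM) in 4889 genes (31.9%), among them 2038 of the called genes. The balance of directions differed between fits. With TMM 67.4% of calls were higher, against 56.1% without scaling factors and 65.7% to 77.7% when 1 library was left out. With limma it was 55.1% after quantile normalisation, 52.0% on log2(FPKM + 1), 63.5% on log2(FPKM + 0.1) and 47.3% on log2(TPM + 1), where the median of all genes lay at -0.10 on the log2 scale. The number of calls was 1307, 3321 and 904 without PTCKO UIR 1, 2 or 3, and 989, 2034 and 1230 without WT UIR 1, 2 or 3. It was 1463 with the 6 UIR libraries fitted alone. A core of 846 genes (5.52%), 670 higher and 176 lower, was called in the full fit and in all 12 fits that left out 1 library.

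**Figure D2:**
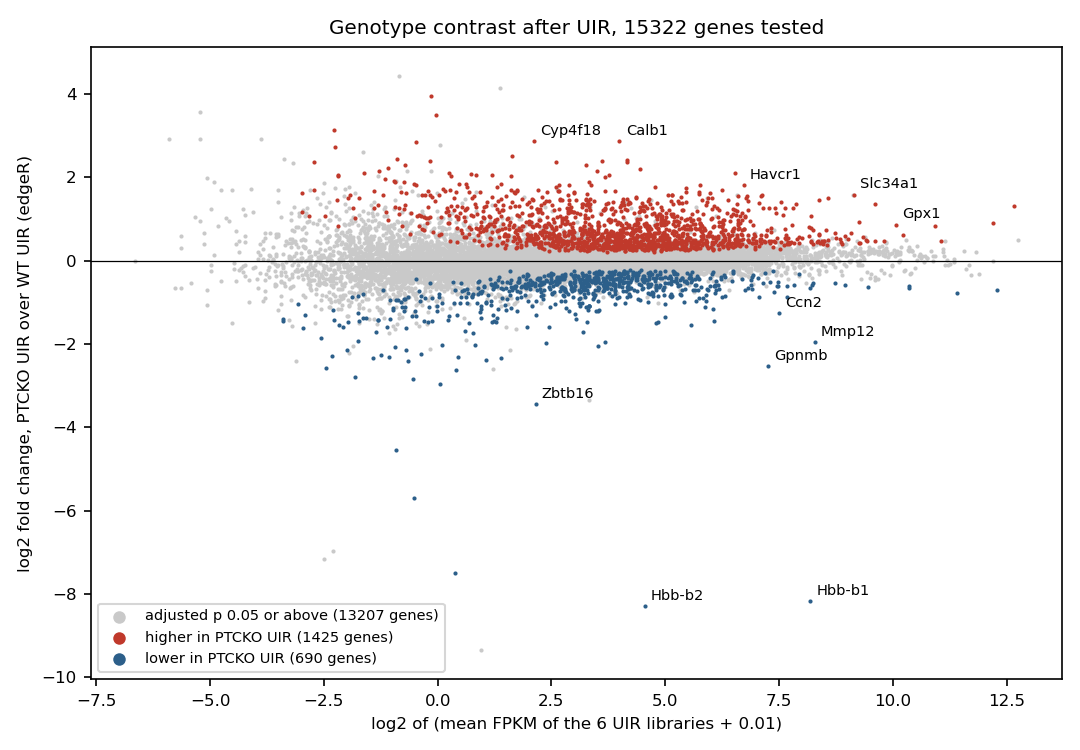
Log2 fold change of PTCKO UIR over WT UIR (edgeR, TMM scaling) against mean level on a log2 axis for the 15322 genes tested; red marks the 1425 genes called higher and blue the 690 called lower in PTCKO UIR. The lowest labelled points, Hbb-b1 and Hbb-b2, are the beta-globin copies that differ between strains.

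Transporters of the proximal tubule were higher in PTCKO UIR along all 3 of its segments. The first convoluted segment, S1, had 10 of 11 listed genes higher and 0 lower (median log2 fold change 1.19), the second, S2, had 7 of 8 higher and 0 lower (1.33), and the straight segment S3 had 5 of 10 higher and 0 lower (0.84). The median over all genes tested was 0.005. Leaving out PTCKO UIR 3, WT UIR 1 or WT UIR 3 left 3 S3 genes called; S1 and S2 had 8 to 10 and 6 to 8 called in every such fit.

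In S1, the sodium-glucose cotransporter Slc5a2 (SGLT2) had 137, 72.3 and 135 FPKM in PTCKO UIR, against 18.1, 59.7 and 34.7 FPKM in WT UIR. PTCKO UIR 2 and WT UIR 2 were the closest libraries of the 2 groups and still did not cross (1.69, SE 0.35, adjusted p = 0.0065). The sodium-phosphate cotransporter Slc34a1 was at 804, 619 and 1097 FPKM in PTCKO UIR, against 191, 423 and 261 FPKM in WT UIR (1.58, SE 0.27, adjusted p = 0.00254). Sham kidneys had far more, 3797 ± 479.9 FPKM in PTCKO Sham and 4734 ± 58.1 FPKM in WT Sham (SD, n = 3 each), so both injured groups lay below sham. Slc6a19, which takes up neutral amino acids, had 15.8, 13 and 19.1 FPKM in PTCKO UIR, against 2.34, 8.11 and 3.82 FPKM in WT UIR (1.82, adjusted p = 0.0033). The basolateral glucose carrier Slc2a2 (GLUT2) rose by 1.39 (adjusted p = 0.00223). Slc36a2 did not pass, at -0.04 (adjusted p = 0.924).

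S2 secretes organic ions, and its carriers rose by similar amounts. The organic anion transporter Slc22a6 (OAT1) had 37.0, 53.6 and 62.0 FPKM in PTCKO UIR, against 15.0, 29.1 and 17.9 FPKM in WT UIR (1.37, SE 0.24, adjusted p = 0.00297). Slc22a8 (OAT3) had 14.4, 20.8 and 20.1 FPKM in PTCKO UIR, against 6.32, 10.8 and 5.36 FPKM in WT UIR (1.37, adjusted p = 0.00267). In both, the lowest PTCKO UIR value was above the highest WT UIR value. The organic cation transporter Slc22a2 (1.42) and the urate and phosphate carrier Slc17a1 (1.39) were also called, with adjusted p = 0.00086 and 0.0012. In S3, Slc3a1, the heavy chain of the cystine transporter, had 56.3, 50.4 and 72.7 FPKM in PTCKO UIR, against 18.9, 28.3 and 18.6 FPKM in WT UIR (1.52, SE 0.18, adjusted p = 0.00057). Slc5a10, a carrier of fructose and mannose, rose by 1.24 (adjusted p = 0.000497). Slc7a13 and Slc22a7 did not pass, at 0.79 and -0.06 (adjusted p = 0.0543 and 0.969). However, Slc7a13 was called by DESeq2, with RLE size factors, without a filter on low counts, and without PTCKO UIR 1 or WT UIR 2.

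The transcription factors of the segment moved with its transporters to a smaller degree. Of 9 factors and coactivators, 4 were higher and 0 lower (median 0.41), and 7 were called without WT UIR 2. Hnf4a, a nuclear receptor that maintains proximal tubule identity, had 61.9, 53.1 and 69.6 FPKM in PTCKO UIR, against 28.5, 40.7 and 26.7 FPKM in WT UIR (1.02, SE 0.17, adjusted p = 0.00223). Ppara, the fatty acid receptor that drives oxidation genes, rose by 1.23 (adjusted p = 0.000905). Esrra, an orphan receptor of mitochondrial genes, rose by 0.39 (adjusted p = 0.00624). Its coactivator Ppargc1a did not pass (0.24, adjusted p = 0.191) other than without WT UIR 2.

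Of 9 endocytosis genes, 4 were higher and 0 lower, and the receptor complex itself carried the change. Cubilin (Cubn) had 8.09, 5.93 and 9.52 FPKM in PTCKO UIR, against 1.91, 3.63 and 2.35 FPKM in WT UIR (1.65, adjusted p = 0.000776). Megalin (Lrp2) had 21.3, 21.9 and 27.9 FPKM in PTCKO UIR, against 6.73, 13 and 8.56 FPKM in WT UIR (1.40, adjusted p = 0.00133). Amn, which carries cubilin to the membrane, rose by 1.43 (adjusted p = 0.00115). The chloride exchanger Clcn5 and the adaptor Dab2, both of the same uptake route, did not pass (-0.07 and 0.29, adjusted p = 0.584 and 0.145).

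Brush border peptidases and glycosidases divided: 5 of 12 were higher and 0 lower (median 0.47). Trehalase (Treh), which splits the sugar trehalose, had 10.2, 13.6 and 17.9 FPKM in PTCKO UIR, against 4.80, 7.30 and 4.02 FPKM in WT UIR (1.45, adjusted p = 0.00142), and meprin alpha (Mep1a) rose by 1.07 (adjusted p = 0.00293). The aminopeptidase Anpep and the endopeptidase Mme did not pass, at -0.30 and -0.26 (adjusted p = 0.161 and 0.222), and Anpep was called lower without WT UIR 2. Of 8 renin-angiotensin genes 3 were higher (37.5%, against 9.30% of all genes), among them the receptor-associated protein Agtrap (0.44, adjusted p = 0.00477). Renin (Ren1) did not pass (-0.20, adjusted p = 0.439).

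**Figure D3:**
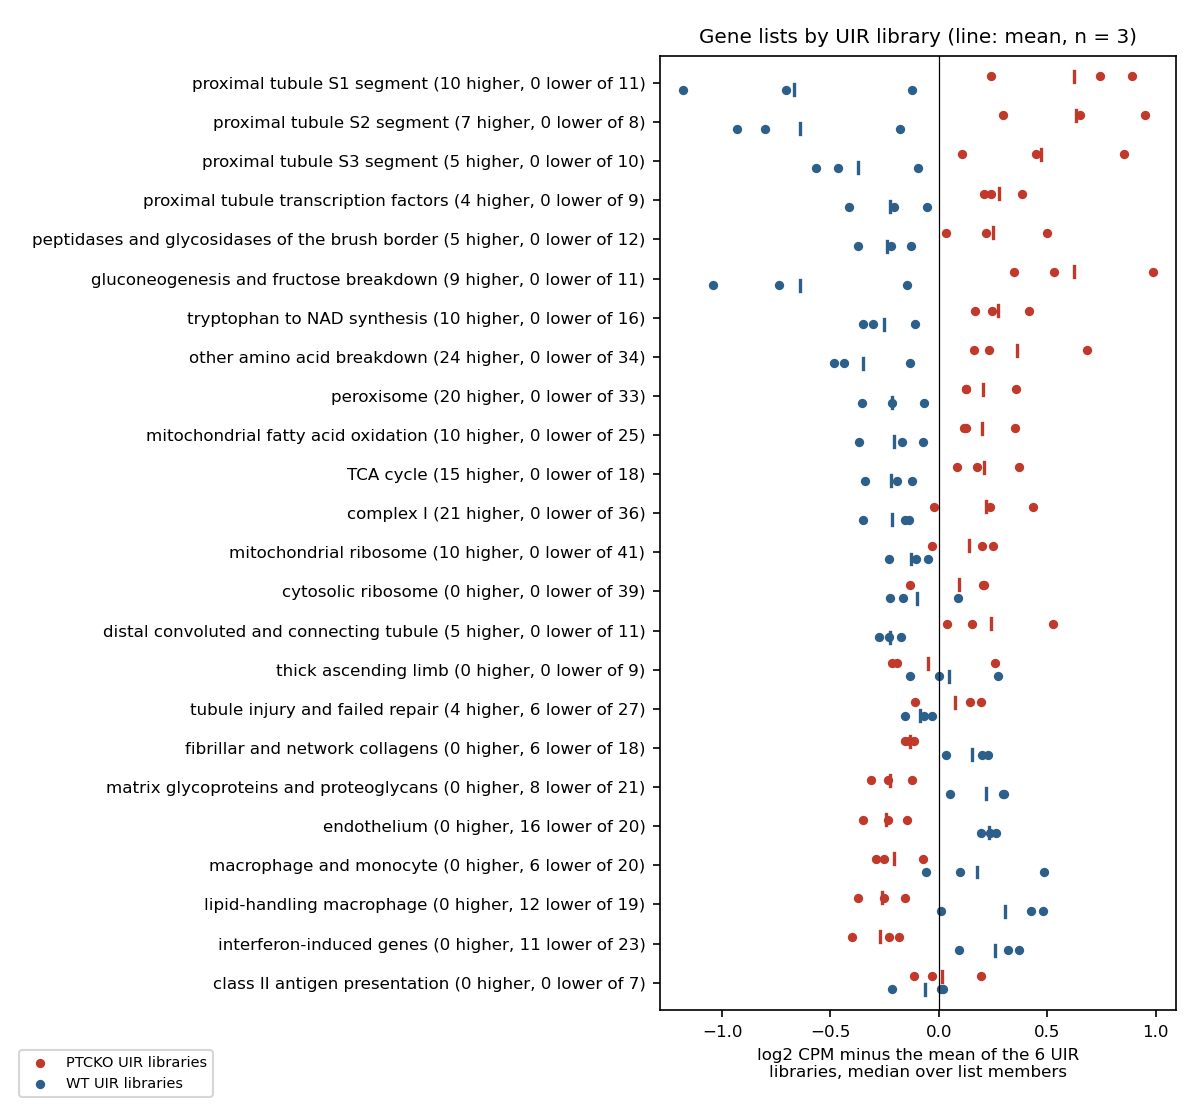
For 24 gene lists, the median over members of log2 CPM minus the mean of the 6 UIR libraries (horizontal axis, log2), with 1 point per library, PTCKO UIR above WT UIR in each row, and the mean of 3 as a line; row labels count the called members. In the 3 proximal tubule segments all PTCKO UIR libraries lie right of 0 and all WT UIR libraries left of it, with WT UIR 2 nearest to 0 among the WT UIR libraries.

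Enzymes of the proximal tubule followed its transporters. In gluconeogenesis and fructose breakdown, 9 of 11 genes were higher and 0 lower (median 1.37), and 9 or 10 were called in every alternative and every fit without 1 library. Pck1, the enzyme that commits carbon to new glucose, had 95.8, 174 and 218 FPKM in PTCKO UIR, against 49.3, 83.1 and 59.3 FPKM in WT UIR (1.42, SE 0.27, adjusted p = 0.00483). Fbp1, fructose bisphosphatase, had 145, 142 and 202 FPKM in PTCKO UIR, against 33.9, 87.2 and 54.5 FPKM in WT UIR (1.55, adjusted p = 0.00239). The fructose carrier Slc2a5 (GLUT5) rose by 1.82 (adjusted p = 0.00104), sorbitol dehydrogenase (Sord) by 1.39 and pyruvate carboxylase (Pcx) by 1.37. Glycolysis, which runs the other way, had 4 of 17 genes higher and 0 lower (median 0.17), with Tpi1, shared by both routes, at 0.55 (adjusted p = 0.00388); 1 gene was called without PTCKO UIR 1, PTCKO UIR 3 or WT UIR 1.

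Breakdown of amino acids was higher across several routes. Outside the branched-chain route 24 of 34 genes were higher and 0 lower (median 0.89). Ass1, which makes argininosuccinate for arginine synthesis, had 470.2, 368 and 601 FPKM in PTCKO UIR, against 122, 269 and 167 FPKM in WT UIR (1.45, adjusted p = 0.00315). Hgd, of tyrosine breakdown, rose by 1.59 (adjusted p = 0.000699). Prodh2, of hydroxyproline breakdown, had 24.8, 14.1 and 21.8 FPKM in PTCKO UIR, against 2.99, 8.26 and 4.29 FPKM in WT UIR (2.01, adjusted p = 0.0013). Of 19 branched-chain genes 12 were higher and 0 lower (median 0.46), such as Aldh6a1 (0.77) and Bckdha (0.64); 6 were called without PTCKO UIR 3 or WT UIR 1.

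In the route from tryptophan to NAD, 10 of 16 genes were higher and 0 lower (median 0.65), and 9 to 11 were called without any 1 library. Qprt, which makes the nicotinate nucleotide, had 26.3, 22.0 and 25.0 FPKM in PTCKO UIR, against 10.4, 12.9 and 9.81 FPKM in WT UIR (1.21, SE 0.11, adjusted p = 0.000308). Acmsd, which diverts an intermediate away from NAD, rose as well (1.22, adjusted p = 0.00728), as did Nmrk1, the nicotinamide riboside kinase of the salvage route (1.19), Haao (1.08) and Kmo (0.75).

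Mitochondrial fat oxidation genes were higher in 10 of 25 and peroxisome genes of all functions in 20 of 33, with 0 lower in each (medians 0.42 and 0.44). Without PTCKO UIR 3 the counts were 6 and 10, and without WT UIR 1 they were 6 and 8. Cpt2, which completes the import of fatty acids into mitochondria, had 19.2, 20.4 and 24.5 FPKM in PTCKO UIR, against 12.4, 16.2 and 13.7 FPKM in WT UIR (0.67, adjusted p = 0.00431). The medium-chain ligases Acsm1 and Acsm2 rose by 1.49 and 1.37, and Hadh by 0.74. In peroxisomes, Pecr rose by 1.34, D-amino acid oxidase (Dao) by 1.20, and the sarcosine oxidase Pipox by 1.11 (adjusted p = 0.00142, 0.00143 and 0.00132). Of 6 ketone body genes 4 were higher, among them Bdh1 (1.17) and Bdh2 (1.31), and 0 were lower. However, 1 of the 6 fold changes was below 0, at -0.90, and 1 gene was called lower without PTCKO UIR 2.

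Of 22 cytochrome P450 genes 11 were higher and 1, Cyp1b1 (-0.60, adjusted p = 0.0205), was lower (median 1.17); without PTCKO UIR 3 they were 7 and 0, and Cyp1b1 also lost its call without PTCKO UIR 1 or WT UIR 1. Cyp4f18, which hydroxylates leukotriene B4, had 7.63, 8.54 and 6.46 FPKM in PTCKO UIR, against 0.960, 1.15 and 1.16 FPKM in WT UIR (2.87, SE 0.20, adjusted p = 3.39e-05). In sham kidneys it was at 0.347 ± 0.10 FPKM in PTCKO Sham and 0.447 ± 0.165 FPKM in WT Sham. Cyp4a12a, the male-type arachidonate hydroxylase of mouse kidney, had 7.58, 12.0 and 10.5 FPKM in PTCKO UIR, against 2.66, 2.18 and 1.22 FPKM in WT UIR (2.37, adjusted p = 0.000588). The vitamin D pair moved together although they act in opposite directions: Cyp27b1, which activates vitamin D, rose by 1.62 and Cyp24a1, which degrades it, by 1.68 (adjusted p = 0.00529 and 0.00902). Cyp2a5, a coumarin hydroxylase, rose by 1.89; it and Cyp4a12a have near-identical copies, so their values are uncertain.

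Glutathione and peroxide defence was higher in 14 of 28 genes and lower in 0 (median 0.37), with 7 called without PTCKO UIR 3, WT UIR 1 or WT UIR 3. Gsta2, a glutathione transferase, had 146, 142 and 158 FPKM in PTCKO UIR, against 26.3, 49.9 and 32.2 FPKM in WT UIR (2.10, SE 0.21, adjusted p = 0.000362), a value made uncertain by its close copy Gsta1. Gpx1, the main cytosolic glutathione peroxidase, had 1376, 1131 and 1577 FPKM in PTCKO UIR, against 745, 874 and 733 FPKM in WT UIR (0.87, adjusted p = 0.00225). Glutathione synthetase (Gss) rose by 1.04 and extracellular superoxide dismutase (Sod3) by 0.90. Of 25 sterol and fatty acid synthesis genes 11 were higher and 0 lower (median 0.30), with Sqle, squalene epoxidase, at 0.95 (adjusted p = 0.000905); 6 were called without PTCKO UIR 3.

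**Figure D4:**
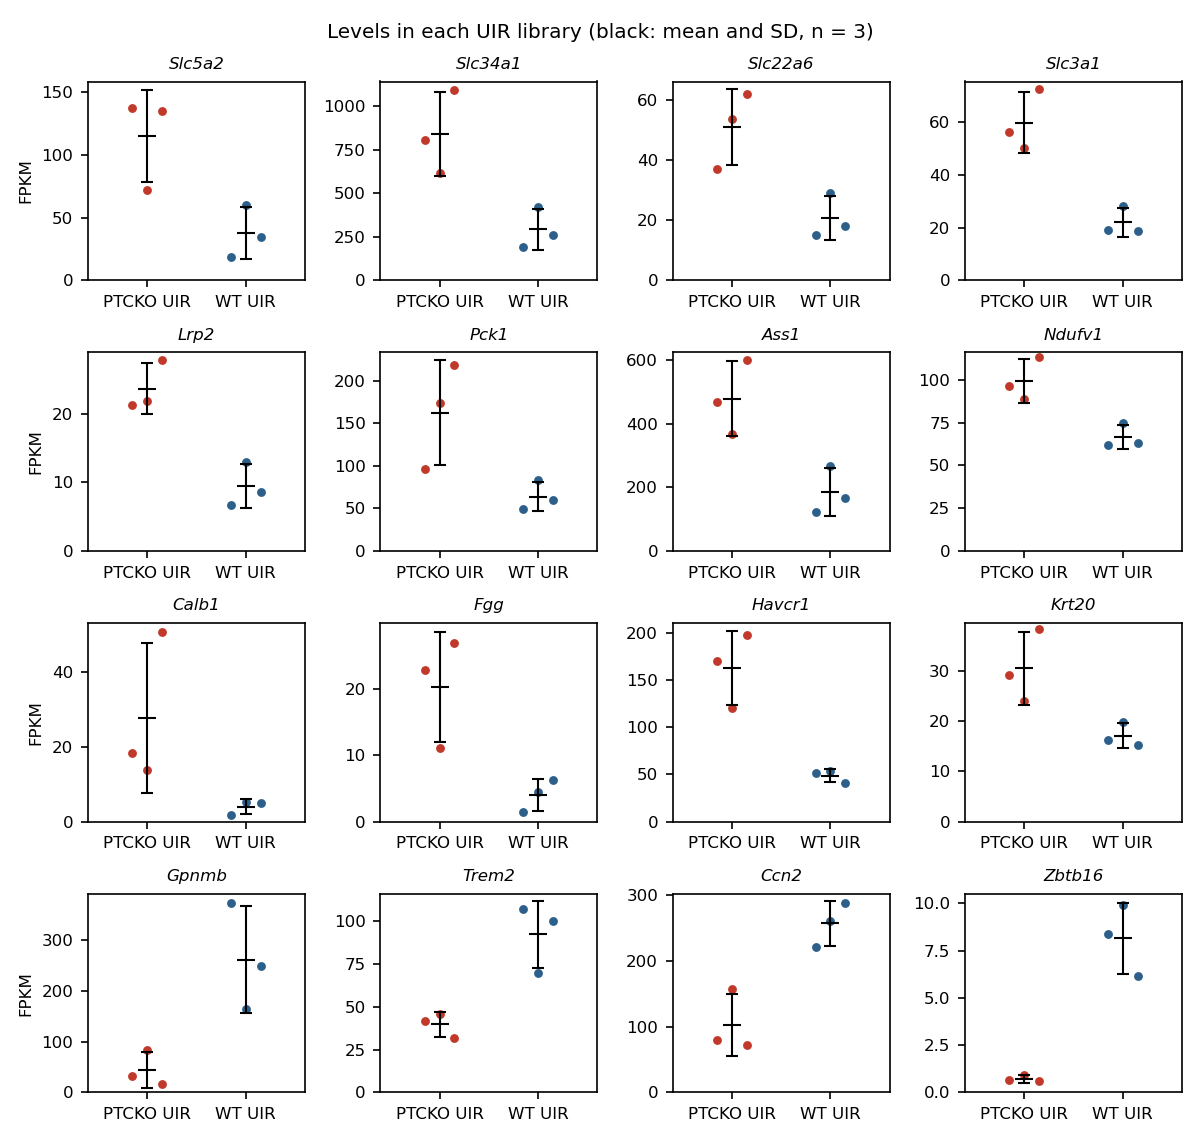
FPKM of 16 genes in each UIR library (points), with mean and SD (black, n = 3), PTCKO UIR left of WT UIR and each axis starting at 0. In 12 panels every PTCKO UIR library lies above every WT UIR library, and in the last row (Gpnmb, Trem2, Ccn2, Zbtb16) every one lies below.

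Nuclear genes of the respiratory chain were higher in PTCKO UIR by less than the transporters. Complex I, which takes electrons from NADH, had 21 of 36 genes higher. Complexes II, III and IV had 4 of 4, 7 of 9 and 5 of 12 higher, ATP synthase had 9 of 15, and 0 were lower in any of them. Medians lay between 0.41 and 0.50. The complex I subunit Ndufv1 had 96.3, 88.5 and 113 FPKM in PTCKO UIR, against 61.7, 74.7 and 63.3 FPKM in WT UIR (0.65, SE 0.12, adjusted p = 0.00361). Ndufc2, also of complex I, rose by 0.61 (adjusted p = 0.00679). Succinate dehydrogenase subunit Sdhb had 143, 126 and 173 FPKM in PTCKO UIR, against 89.5, 104 and 103 FPKM in WT UIR (0.65, adjusted p = 0.00787). Cyc1 of complex III (0.50), Cox7c of complex IV (0.57) and Atp5g3 of ATP synthase (0.63) were called, and each lost its call without PTCKO UIR 3 or WT UIR 1.

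These counts rested on single libraries. Complex I had 7, 35 and 2 calls without PTCKO UIR 1, 2 or 3, and 2, 13 and 8 without WT UIR 1, 2 or 3. Complex III had 4 without PTCKO UIR 1 or WT UIR 3 and 0 without PTCKO UIR 3 or WT UIR 1, and complex II had 2 without either of the last pair. Complex IV and ATP synthase had 0 when PTCKO UIR 3 or WT UIR 1 was left out. Leaving out PTCKO UIR 1 gave 0 and 2, leaving out PTCKO UIR 2 gave 10 and 15, and leaving out WT UIR 3 gave 2 and 2. Complex IV also had 2 without WT UIR 2, 3 without PTCKO Sham 1, 2 or 3 or WT Sham 1, and 8 without WT Sham 3. With the 6 UIR libraries fitted alone complex I had 10 calls, complex III 3, and complex IV and ATP synthase 0. The median of complex I stayed between 0.33 and 0.55 in these fits.

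Other mitochondrial machinery followed, apart from fission, fusion and mitophagy genes and genome maintenance and biogenesis genes, with fewer calls and 0 lower. Mitochondrial ribosome genes were higher in 10 of 41 (24.4%, median 0.30). Protein import had 4 of 23 higher (17.4%, 0.29) and assembly factors 6 of 32 (18.8%, 0.25), against 9.30% of all genes. The ribosome list had 0 calls without PTCKO UIR 1, PTCKO UIR 3 or WT UIR 1, 6 without WT UIR 2 and 28 without PTCKO UIR 2. Leaving out PTCKO UIR 2 gave 15 import and 10 assembly calls, while import had 0 when PTCKO UIR 3 was left out and 1 when WT UIR 1 was. Ndufaf6 (0.68) and Ecsit (0.55), complex I assembly factors, and Sdhaf1 (0.66), of complex II, were called in every fit without 1 library. Of the TCA cycle, whose list shares Sdhb with complex II, 15 of 18 genes were higher (median 0.44). Of these, 4 were called without PTCKO UIR 3 and 3 without WT UIR 1. Idh2 had 131, 122 and 149.8 FPKM in PTCKO UIR, against 83.2, 99.9 and 91.3 FPKM in WT UIR (0.62, adjusted p = 0.00358). In coenzyme Q synthesis 5 of 12 genes were higher, with Coq8a at 0.91 and Coq9 at 0.66; leaving out PTCKO UIR 1 left 3 called, and leaving out PTCKO UIR 3, WT UIR 1 or WT UIR 3 left 2. Of 17 fission, fusion and mitophagy genes only Bnip3, a mitophagy receptor, was called (0.58, adjusted p = 0.0062). That is 5.88% higher, below the 9.30% of all genes. The list had 4 called without PTCKO UIR 2, 3 without WT UIR 2 and 2 without WT Sham 3. Genome maintenance and biogenesis had 2 of 16 genes higher (12.5%, against 9.30% of all genes). Its median was 0.17, and 0.016 with limma on log2(TPM + 1).

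Transcript length moved with the contrast. In 5 equal classes from short to long, the median log2 fold change was 0.16, 0.06, 0.00, -0.04 and -0.08. The share called higher was 14.3% in the shortest class and 5.46% in the longest, and the share called lower was 3.18% and 6.43%. Many mitochondrial transcripts are short: complex I genes had a median effective length of 682 bases, against 2308 for S1 genes. With the length trend removed, the medians were 0.28 for complex I (0.44 as tested), 0.26 for complex IV (0.48), 0.21 for ATP synthase (0.41), 0.16 for the mitochondrial ribosome (0.30) and 0.02 for the cytosolic ribosome (0.19). S1 transporters had 1.26 (1.19), and gluconeogenesis and fructose breakdown 1.32 (1.37). Of 39 cytosolic ribosome genes 0 were called in either direction by edgeR (1 higher by DESeq2, and 5 higher without PTCKO UIR 2). Of these, 3 had an unadjusted p under 0.05. The part of length in the mitochondrial values was not tested beyond this.

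**Figure D5:**
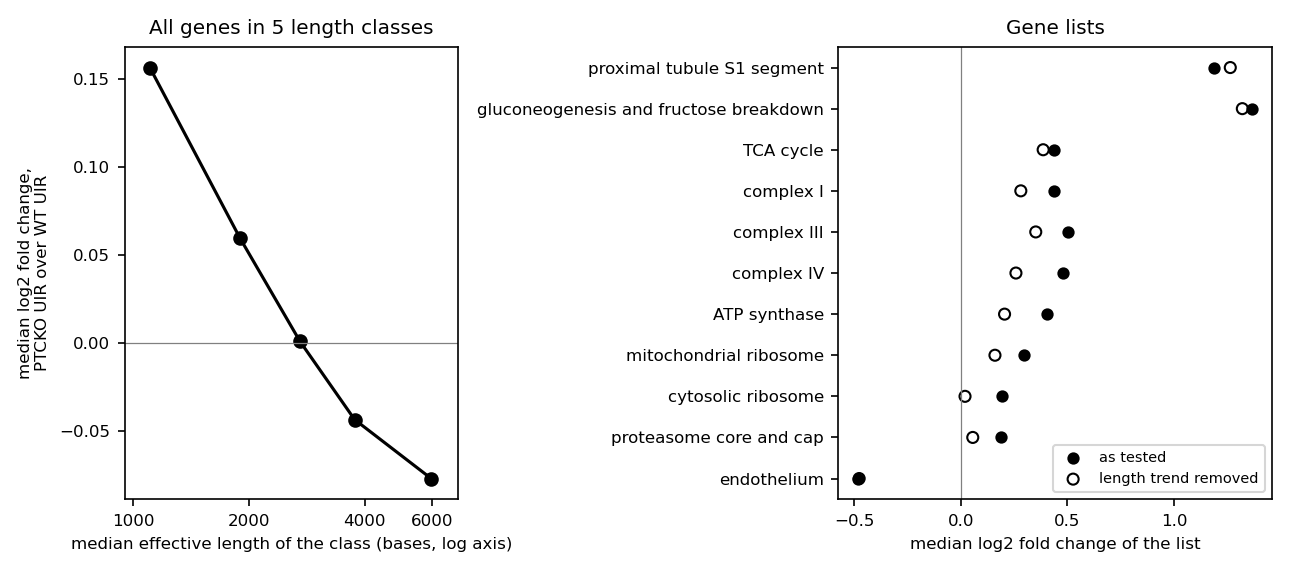
Left, median log2 fold change of PTCKO UIR over WT UIR in 5 classes of effective transcript length (log axis), from 0.16 in the shortest to -0.08 in the longest class. Right, median log2 fold change of 11 gene lists as tested (filled) and with the length trend removed (open); the respiratory complexes and ribosomes shift towards 0 and the S1, gluconeogenesis and endothelium lists little.

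Beyond the proximal tubule, some distal genes were higher and others were not. In the distal convoluted and connecting tubule 5 of 11 genes were higher and 0 lower (median 0.65), and 3 were called without PTCKO UIR 3, WT UIR 1 or WT UIR 3. Calb1, the calcium buffer calbindin-D28k, had 18.5, 13.9 and 50.8 FPKM in PTCKO UIR, against 1.75, 5.38 and 5.03 FPKM in WT UIR, with PTCKO UIR 3 far above its group (2.86, SE 0.47, adjusted p = 0.0022). Klotho (Kl), the FGF23 coreceptor, had 26.4, 23.3 and 40.0 FPKM in PTCKO UIR, against 7.90, 15.6 and 9.16 FPKM in WT UIR (1.53, adjusted p = 0.0022), and the calcium buffer S100g rose by 1.26. Of 10 principal cell genes 5 were higher and 0 lower (median 0.63), with 2 called without PTCKO UIR 3 or WT UIR 1 and 3 without WT UIR 3. The water channel Aqp3 had 12.6, 14.1 and 21.9 FPKM in PTCKO UIR, against 6.88, 9.95 and 6.78 FPKM in WT UIR (1.11, adjusted p = 0.00454), and the sodium channel subunit Scnn1b rose by 0.67.

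Intercalated cell genes, which handle acid and base, were lower in 3 of 11 and higher in 0 (1 lower without PTCKO UIR 3). Atp6v0d2, a proton pump subunit that macrophages and osteoclasts also make, had 26.2, 42.8 and 31.8 FPKM in PTCKO UIR, against 80.2, 56.8 and 68.1 FPKM in WT UIR (-0.96, adjusted p = 0.0022). Foxi1, the transcription factor of these cells, fell to 23.6, 33.4 and 17.5 FPKM in PTCKO UIR, against 45.2, 49.4 and 40.0 FPKM in WT UIR (-0.79, adjusted p = 0.0132), and lost its call without PTCKO UIR 3. Thick ascending limb genes had 0 of 9 called by edgeR (3 at an unadjusted p under 0.05; DESeq2 called 1 in each direction, and 1 was lower without PTCKO UIR 3 or PTCKO Sham 2). Umod, given above, overlapped between the groups.

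Tubule injury markers did not share a direction: 4 of 27 were higher (14.8%, against 9.30% of all genes) and 6 lower (22.2%, against 4.50%). Their median was 0.22, with 11 higher without PTCKO UIR 2 and 3 lower without PTCKO UIR 3. Havcr1 (KIM-1), the phosphatidylserine receptor of injured proximal tubule cells, had 169.8, 120.0 and 198 FPKM in PTCKO UIR, against 51.2, 53.5 and 40.8 FPKM in WT UIR (1.82, SE 0.25, adjusted p = 0.000905). It was also higher after sham, at 3.36 ± 1.48 FPKM in PTCKO Sham and 0.320 ± 0.202 FPKM in WT Sham (3.27, adjusted p = 0.00464). Keratin 20 (Krt20) rose by 0.91 and the integrin subunit Itgb6, which activates TGF-beta, by 0.78 (adjusted p = 0.00349 and 0.00658). Annexin A1 (Anxa1) fell to 87.7, 101 and 88.1 FPKM in PTCKO UIR, against 191, 144 and 192 FPKM in WT UIR (-0.86, adjusted p = 0.00086), and the urokinase receptor Plaur was lower as well (-0.63). Vimentin (Vim), also made by fibroblasts, was at -0.54 (adjusted p = 0.0266; lost its call without PTCKO UIR 1, PTCKO UIR 3, WT UIR 1 or WT UIR 3). Lcn2, Sox9, Vcam1 and Spp1 did not pass, at 0.28, 0.28, 0.29 and 0.51 (adjusted p = 0.506, 0.191, 0.148 and 0.0556); DESeq2 called the last pair higher. Spp1 was also called without PTCKO UIR 2, and stood at -0.11 after quantile normalisation.

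A minority of the stromal genes listed were lower in PTCKO UIR and 0 were higher. Of 18 collagen genes 6 were lower and 0 higher (median -0.31), of 21 matrix glycoproteins and proteoglycans 8 and 0 (-0.45), and of 15 fibroblast, pericyte and smooth muscle genes 7 and 0 (-0.31). The collagens had 1 lower without PTCKO UIR 1, WT UIR 1 or WT UIR 3 and 2 without PTCKO UIR 3. Of the glycoproteins 5 were lower when PTCKO UIR 1 was left out, 3 when PTCKO UIR 3 was, and 4 when WT UIR 1 or WT UIR 3 was. The fibroblast list had 4 in the fit that dropped PTCKO UIR 3. The calls lay in collagens V, VI, VIII and XIV: Col6a2 had 39.5, 54.7 and 31.8 FPKM in PTCKO UIR, against 81.5, 63.1 and 87.0 FPKM in WT UIR (-0.82, adjusted p = 0.00485). The interstitial collagens Col1a1, Col1a2 and Col3a1 did not pass (-0.32, -0.33 and -0.45, adjusted p = 0.342, 0.15 and 0.176); Col1a2 was called after quantile normalisation and Col3a1 without WT Sham 2.

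Ccn2 (CTGF), a matrix-associated target of TGF-beta and YAP, had 80.1, 157 and 71.8 FPKM in PTCKO UIR, against 222, 259.8 and 288 FPKM in WT UIR, with PTCKO UIR 2 nearest to the WT UIR libraries (-1.26, SE 0.22, adjusted p = 0.00311). The microfibril protein Mfap4 had 33.8, 43.9 and 29.9 FPKM in PTCKO UIR, against 98.3, 65.4 and 81.0 FPKM in WT UIR (-1.12, adjusted p = 0.000967). Pi16, a marker of adventitial fibroblasts, was at -1.01, and the smooth muscle genes Cnn1 and Tagln were at -0.93 and -0.67 (adjusted p = 0.00214, 0.00486 and 0.00405). Among 25 TGF-beta and BMP genes 3 were higher (12%, against 9.30% of all genes) and 3 lower (12%, against 4.50%), with Bmp6 (0.59) and Bmp7 (0.55), an epithelial BMP, higher and the ligand Tgfb3 (-0.69) lower; without PTCKO UIR 2 the lower count was 5 and without WT UIR 1 it was 1.

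Endothelial genes were lower in 16 of 20 and higher in 0 (median -0.48), and all 20 fold changes were below 0. The count was 5 without PTCKO UIR 1 or WT UIR 1 and 8 without PTCKO UIR 3. The angiopoietin receptor partner Tie1 had 11.9, 13.6 and 12.4 FPKM in PTCKO UIR, against 21.5, 20.3 and 20.1 FPKM in WT UIR (-0.64, SE 0.08, adjusted p = 0.000596). The junction protein Esam had 12.9, 16.2 and 13.1 FPKM in PTCKO UIR, against 23.4, 23.4 and 23.4 FPKM in WT UIR (-0.67, adjusted p = 0.00197). Endomucin (Emcn) and Robo4 were at -0.43 and -0.43, and von Willebrand factor (Vwf) at -0.93 (adjusted p = 0.00367, 0.00853 and 0.0128). Vwf lost its call without PTCKO UIR 1 or WT UIR 1.

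Immune genes differed by kind. Of 19 genes of lipid-handling macrophages, cells that take up lipid and debris, 12 were lower and 0 higher (median -0.60), with 7, 6 and 6 lower without PTCKO UIR 3, WT UIR 1 or WT UIR 3. Gpnmb, a glycoprotein of such cells, had 31.9, 84.0 and 15.7 FPKM in PTCKO UIR, against 372, 163 and 248 FPKM in WT UIR (-2.53, SE 0.46, adjusted p = 0.00367). PTCKO UIR 2 and WT UIR 2 were again the nearest libraries of the 2 groups. The lipid receptor Trem2 had 41.7, 45.8 and 31.8 FPKM in PTCKO UIR, against 107, 69.8 and 100.1 FPKM in WT UIR (-1.16, adjusted p = 0.00111). Mmp12, macrophage elastase, fell to 118, 189.5 and 64.8 FPKM in PTCKO UIR, against 616, 322 and 557 FPKM in WT UIR (-1.96, adjusted p = 0.0022), and the lipid chaperone Fabp5 was at -1.44. Spp1, Lipa and Plin2 of the same list did not pass (0.51, 0.15 and -0.13, adjusted p = 0.0556, 0.368 and 0.459).

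General macrophage and monocyte markers were lower in 6 of 20 (30.0%, against 4.50% of all genes) and higher in 0 (median -0.37). The lower count was 2 without PTCKO UIR 1, PTCKO UIR 3, WT UIR 1, WT UIR 3 or WT Sham 1, and 3 without PTCKO UIR 2 or PTCKO Sham 1. Ms4a4a, a membrane protein of macrophages, had 2.18, 2.48 and 1.39 FPKM in PTCKO UIR, against 7.59, 8.46 and 9.04 FPKM in WT UIR (-1.99, adjusted p = 0.000699). The scavenger receptor Stab1 had 10.6, 11.5 and 9.11 FPKM in PTCKO UIR, against 21.5, 17.7 and 21.6 FPKM in WT UIR (-0.90, adjusted p = 0.000948). Adgre1 (F4/80), Csf1r and C1qa did not pass (-0.75, -0.30 and -0.22, adjusted p = 0.0512, 0.178 and 0.382); Adgre1 was called lower by DESeq2, by limma on TPM, without scaling factors, without a filter and without WT UIR 2. Class II antigen presentation had 0 of 7 called in every fit run; its invariant chain Cd74 had 5102, 4700.3 and 3991 FPKM in PTCKO UIR and 5140.0, 4631 and 4739.7 FPKM in WT UIR, and H2-Aa had 2909.7, 2540.2 and 2248 FPKM in PTCKO UIR and 2563, 2425 and 2807 FPKM in WT UIR.

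Interferon-induced genes were lower in 11 of 23 and higher in 0 (median -0.54), with 8 to 13 called without any 1 library. Oas2, which senses double-stranded RNA, had 6.77, 8.64 and 4.81 FPKM in PTCKO UIR, against 19.6, 14.8 and 13.8 FPKM in WT UIR (-1.20, SE 0.21, adjusted p = 0.00289). Oasl2 had 37.6, 41.6 and 29.1 FPKM in PTCKO UIR, against 68.5, 57.1 and 60.2 FPKM in WT UIR (-0.72, adjusted p = 0.00197). Usp18, which removes ISG15 from proteins, was at -0.88 and Rtp4 at -0.70 (adjusted p = 0.00329 and 0.00266). Oas1a and the interferon signal carrier Stat2 were lower, at -0.64 and -0.51 (adjusted p = 0.00536 and 0.0245; Stat2 lost its call without PTCKO UIR 1, PTCKO UIR 3, WT UIR 1 or WT UIR 3), while Irf1 did not pass (0.20, adjusted p = 0.361). Oas1a and Stat2 both hold the core of an interferon-stimulated response element (GAAAC, any base, GAAA) on either strand, within 250 bases before the start; they are shown because both were lower. Stretches of up to 50 bases on each side of the match are given 5′ to 3′ on the gene's strand, from RefSeq promoter windows of GRCm38.p6, with the matched letters in capitals. A match is a description of the sequence and not a shown binding site. Whether a match goes with a lower level was not tested. Oas2, Oasl2, Usp18 and Rtp4, also lower, were not among the listed genes with a match, though not every listed gene had a window. Oas1a has close copies beside it, so its value is uncertain.
Oas1a (chr5:120907526-120907589, minus strand): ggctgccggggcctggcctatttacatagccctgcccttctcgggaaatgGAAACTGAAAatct
Stat2 (chr10:128270248-128270335, plus strand): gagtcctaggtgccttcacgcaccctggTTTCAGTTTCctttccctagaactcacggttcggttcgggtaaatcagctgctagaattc
Of 18 interferon-induced genes with a window, 7 held these letters (38.9%), against 82 of the 12147 tested genes with a window (0.675%) and 0 of the 23 proximal tubule segment genes.

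Complement and coagulation genes went both ways, with 5 of 27 higher (18.5%, against 9.30% of all genes) and 3 lower (11.1%, against 4.50%). The lower count was 1 without PTCKO UIR 1, PTCKO UIR 3, WT UIR 1 or WT UIR 3 and 5 without PTCKO UIR 2 or WT UIR 2. The fibrinogen chain Fgg had 22.9, 11.1 and 27.0 FPKM in PTCKO UIR, against 1.5, 4.51 and 6.24 FPKM in WT UIR (2.40, adjusted p = 0.00211), and Fga had 16.7, 9.39 and 20.5 FPKM in PTCKO UIR, against 1.66, 4.15 and 4.58 FPKM in WT UIR (2.29, adjusted p = 0.00162). The complement factors Cfi and Cfb rose by 1.25 and 0.97, and the terminal component C7 was lower (-0.89, adjusted p = 0.00415). Of 6 B and plasma cell genes 3 were higher, 5 without PTCKO UIR 2, 1 without PTCKO UIR 1, PTCKO UIR 3 or WT UIR 1, and 0 with limma on FPKM or TPM. Of 14 T and NK cell genes only the interleukin-7 receptor Il7r was called, lower (-0.93, adjusted p = 0.00197). That is 7.14% lower, against 4.50% of all genes. Neutrophil genes had 0 of 8 called by edgeR and by DESeq2 (4 at an unadjusted p under 0.05) and 2 higher without PTCKO UIR 2 or WT UIR 3; S100a9 had 30.6, 13.7 and 23.0 FPKM in PTCKO UIR and 7.01, 11.4 and 16.8 FPKM in WT UIR (1.00, adjusted p = 0.0762), and was among the genes called without those libraries.

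Clock genes and glucocorticoid-induced genes, which follow time of day and steroid level, also differed. Of 18 clock genes 8 were higher and 3 lower. Dbp, an output factor, had 25.1, 24.6 and 38.7 FPKM in PTCKO UIR, against 7.89, 6.07 and 4.33 FPKM in WT UIR (2.36, SE 0.39, adjusted p = 0.0022). It differed the same way after sham, at 41.0 ± 6.76 FPKM in PTCKO Sham and 5.49 ± 4.20 FPKM in WT Sham (2.76, adjusted p = 0.00386). Tef and Nr1d2 rose by 1.01 and 0.63, and the activators Arntl and Npas2 were lower (-0.78 and -0.60, adjusted p = 0.0118 and 0.0286). The first lost its call without PTCKO UIR 3, and the second lost its call without PTCKO UIR 1, PTCKO UIR 2, PTCKO UIR 3, WT UIR 1, WT UIR 2 or WT UIR 3. Without PTCKO UIR 3 the counts were 5 higher and 0 lower, and the lower count was 1 without PTCKO UIR 1 or WT UIR 3.

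Of 20 glucocorticoid-induced genes 6 were lower and 0 higher after UIR (median -0.25), against 10 lower and 1 higher after sham (median -0.72). The transcription factor Zbtb16 had 0.630, 0.930 and 0.580 FPKM in PTCKO UIR, against 8.36, 9.91 and 6.16 FPKM in WT UIR (-3.44, SE 0.28, adjusted p = 0.000128), and 1.23 ± 0.360 FPKM in PTCKO Sham against 6.48 ± 2.22 FPKM in WT Sham (-2.52, adjusted p = 0.00051). Fkbp5, a chaperone of the glucocorticoid receptor, had 12.8, 16.2 and 15.0 FPKM in PTCKO UIR, against 40.1, 49.5 and 37.8 FPKM in WT UIR (-1.46, adjusted p = 0.000948). Cdkn1a (p21), a cell cycle inhibitor also induced by p53, was at -0.87 and the kinase Sgk1 at -0.68 (adjusted p = 0.00115 and 0.00418). No source used here gives the time of collection, so the part of time of day or steroid level in any difference between the groups was not tested.

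Among the 14 largest rises that held in every fit without 1 library were also Timd2, a receptor for ferritin in mouse, with 37.4, 26.9 and 41.2 FPKM in PTCKO UIR, against 6.59, 11.1 and 6.80 FPKM in WT UIR (2.20, adjusted p = 0.000413), and Car14, a membrane carbonic anhydrase (2.16). B3gnt3, a transferase that extends O-linked sugars, had 5.16, 5.63 and 4.89 FPKM in PTCKO UIR, against 1.24, 0.850 and 0.800 FPKM in WT UIR (2.51, adjusted p = 0.000443), and Fam151a was at 2.05. Among the 14 largest falls were Igfbp2, which binds insulin-like growth factors, at 25.1, 29.9 and 15.5 FPKM in PTCKO UIR, against 71.6, 59.4 and 82.8 FPKM in WT UIR (-1.53, adjusted p = 0.00157), and Ankrd1, a target of YAP, at 19.7, 19.3 and 13.3 FPKM in PTCKO UIR, against 44.7, 59.0 and 36.2 FPKM in WT UIR (-1.35, adjusted p = 0.00314; it did not pass with limma on log2(FPKM + 0.1)). Mamdc2 (-1.60), Fibin (-1.59), Rnase12 (-1.46) and the steroid sulfate carrier Slc10a6 (-1.31) completed the falls outside the lists.

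Little of the contrast after UIR was present after sham, a comparison that shares no library with it. After sham 1645 genes (10.7%) were called, 802 higher (5.23%) and 843 lower (5.50%) in PTCKO Sham than in WT Sham. Of the 1425 genes higher after UIR, 66 were also higher after sham (4.63% of these and 8.23% of the 802) and 159 were lower (11.2%, and 18.9% of the 843). Of the 690 genes lower after UIR, 29 were also lower after sham (4.20%, and 3.44% of the 843) and 24 were higher (3.48%, and 2.99% of the 802). The median of S1 genes was 1.19 after UIR and -0.19 after sham, and that of complex I was 0.44 after UIR and -0.39 after sham. Endothelial genes had -0.48 after UIR and -0.01 after sham, and interferon-induced genes -0.54 and -0.14. The sham medians moved with the fit: with limma on log2(TPM + 1), where the median of all genes after sham was 0.16, they were 0.02 for S1, -0.17 for complex I, 0.20 for endothelium and 0.08 for interferon-induced genes. The genotype difference itself differed between surgeries in 3288 genes (21.5%), 2203 of them (14.4%) towards higher values after UIR and 1085 (7.08%) towards lower. This test uses all 12 libraries and so shares those of the UIR contrast. Its median over all genes moved with the fit: -0.0015 with TMM, -0.20 without scaling factors and -0.29 with limma on log2(TPM + 1). In that order of fits, cytosolic ribosome genes had 24, 8 and 5 positive calls, and endothelial genes 10, 16 and 17 negative calls. The beta-globin marker split the genotypes after UIR but was mixed in both sham groups. Differences between mice that go with the marker thus cannot be told apart from the genotype in this test or in the comparison with sham.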

How the data were processed

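Total RNA of whole kidneys was sequenced in 12 libraries, 3 for each of PTCKO UIR, WT UIR, PTCKO Sham and WT Sham, per the labels. The authors deposited estimated counts per gene, not normalised, together with FPKM and TPM values, per the file headers. Bowtie2, RSEM, DESeq2 and GRCm38.p6 are named, without versions, per the submitters' processing notes. The table held 18803 genes, of which 18747 matched the GRCm38.p6 annotation by gene identifier; the authors' 12 columns of group averages were not used. No source used here says whether counting used strand, so overlapping and antisense genes cannot be separated.

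Expected counts were rounded and tested with edgeR 4.0.16 in R 4.3.3 (TMM scaling, filterByExpr, quasi-likelihood test, 1 coefficient for each of the 4 groups, 8 residual degrees of freedom, two-sided, Benjamini-Hochberg adjustment over 15322 genes, threshold 0.05). The biological coefficient of variation was 0.121. The same fit gave the sham contrast and the interaction of genotype and surgery. The procedure was tested on simulated data. Alternatives were DESeq2 1.42.0, limma 3.58.1 on log2(FPKM + 1), log2(FPKM + 0.1), log2(TPM + 1) (FPKM of at least 1 in 3 libraries) and quantile-normalised log2(CPM + 1), other scalings and count filters (none, or CPM of at least 1 in 3 libraries), the 6 UIR libraries alone, a replicate block, each library left out, and a lowess trend on effective length removed (fraction 0.3).

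Members and the 65 gene lists were chosen with earlier results of these data known, so a list's direction is not independent evidence. Named genes were the 14 largest rises and 14 largest falls among stable genes, up to 5 stable members of each list (or up to 2 called members, or the 2 most abundant where none was called), the NEDD4-family ligases and strain-marker genes; not every gene the rule allows is printed. A gene was stable when called in the full fit and without each library, with no overlap of CPM between groups and a mean of at least 5 FPKM in the higher group. Beyond the rule, 30 list members were named after their values were seen. Values of some single genes are not reported here. Counts of list members are descriptions with no test of the list. Lists overlap in some genes, such as Sdhb in complex II and the TCA cycle, so their counts are not separate. Wilson intervals (95%) cover counting error only. Promoter windows are RefSeq's for GRCm38.p6.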

Additional observations from a re-analysis of the deposited data

Results flagged for a closer look

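The genotype difference after UIR differed from that after sham in 102 of the 163 genes named in the text (edgeR's interaction term, adjusted p under 0.05), against 21.5% of all genes tested. Values are the log2 difference of PTCKO over WT after UIR minus the same after sham, so a positive value means a higher genotype difference after UIR. The term shares the UIR libraries with the main contrast, through which most of these genes were chosen, so it is no independent support. The beta-globin marker split the genotypes in those libraries but was mixed in both sham groups. Differences that go with the marker cannot be told apart from the genotype in this term.

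Proximal tubule genes mostly had positive values. In S1 the interaction was 1.44 for Slc6a19, 2.00 for Slc5a2, 1.96 for Slc34a1 and 1.32 for Slc2a2. In S2 and S3 it was 1.48 for Slc22a2, 1.47 for Slc17a1, 1.74 for Slc22a6, 2.16 for Slc22a8, 1.25 for Slc3a1 and 1.41 for Slc5a10. Among transcription factors it was 0.84 for Hnf4a, 0.59 for Esrra and 1.15 for Ppara. Endocytosis genes had 1.61 for Cubn, 1.71 for Amn and 1.22 for Lrp2, and brush border enzymes had 1.46 for Treh and -0.83 for Mme. Injury markers had -0.74 for Anxa1 and 1.07 for Itgb6. In the distal nephron the values were 3.08 for Calb1, 1.44 for Kl, 1.89 for S100g, 1.12 for Aqp3, 0.96 for Scnn1b and -0.75 for Atp6v0d2.

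Metabolic genes followed. For glucose, fructose and glycolysis the interaction was 1.42 for Slc2a5, 1.93 for Pck1, 1.45 for Sord, 1.31 for Pcx, 1.70 for Fbp1 and 0.73 for Tpi1. Amino acid breakdown had 2.42 for Prodh2, 1.79 for Hgd, 1.61 for Ass1, 0.66 for Aldh6a1 and 0.93 for Bckdha. The NAD route had 1.35 for Acmsd, 1.24 for Qprt, 1.04 for Nmrk1, 1.39 for Haao and 0.89 for Kmo. Fat oxidation, peroxisome, ketone and TCA genes had 1.70 for Acsm1, 1.36 for Acsm2, 1.05 for Hadh, 0.93 for Cpt2, 1.57 for Pecr, 1.45 for Dao, 1.18 for Pipox, 1.44 for Bdh2 and 0.77 for Idh2. Peroxide defence had 2.89 for Gsta2, 1.05 for Gss, 1.40 for Gpx1 and 1.15 for Sod3. Cytochrome P450 and sterol genes had 3.44 for Cyp4f18, 2.64 for Cyp2a5, -0.94 for Cyp1b1 and 0.68 for Sqle.

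In mitochondria the respiratory subunits had 0.83 for Ndufv1, 0.62 for Ndufc2, 0.89 for Sdhb, 0.77 for Cyc1, 0.95 for Cox7c and 1.04 for Atp5g3, and the remaining genes had 0.95 for Ndufaf6, 0.93 for Sdhaf1, 0.80 for Ecsit, 0.70 for Bnip3, 1.10 for Coq8a and 0.71 for Coq9.

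Stromal and vascular genes had -1.86 for Mmp12, -2.16 for Mfap4, -0.96 for Cnn1, 0.40 for Agtrap, -0.50 for Esam, -0.44 for Tie1, -0.62 for Robo4, 1.18 for Ren1 and -1.65 for Vwf. The beta-globin pair, whose mixture of copies varied between libraries, had -7.48 for Hbb-b2 and -7.37 for Hbb-b1. Immune and complement genes had 2.87 for Fgg, 3.11 for Fga, -0.86 for Stab1, -1.26 for Oas2, -0.57 for Oasl2, 1.23 for Cfi, 1.21 for Cfb, -0.96 for C7, -1.09 for Csf1r and -0.83 for Stat2. Regulatory genes had 1.31 for Cdkn1a, 0.70 for Sgk1, 0.62 for Bmp6, 0.76 for Bmp7 and 0.96 for Npas2; Cdkn1a, Sgk1 and Npas2 were lower in PTCKO UIR than in WT UIR and had positive values because their sham differences were further below 0. Genes outside the lists had 2.53 for B3gnt3, 2.42 for Timd2, 2.05 for Car14, 2.53 for Fam151a and -2.32 for Mamdc2.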

How the results depend on the processing

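The number of genes called after UIR ranged from 904 to 3321 when 1 library was left out, higher calls from 699 to 2183 and lower calls from 205 to 1138. Fitting the 6 UIR libraries alone gave 1463 calls, against 2115 in the main fit, with 923 higher and 540 lower. Lower calls were 1223 after quantile normalisation, 1096 with limma on log2(FPKM + 1) and 1068 on log2(TPM + 1). Sham calls were 654 after quantile normalisation and 2655 on log2(TPM + 1), and 430 to 2183 without 1 library; interaction calls were 1743 to 4565 without 1 library. Of 1080 list members tested, 390 were called (36.1%), and 195 to 523 without 1 library. The cause of these shifts was not tested.

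Wwp2 lost its call without scaling factors (0.18), with limma on log2(FPKM + 1) (0.17), log2(FPKM + 0.1) (0.18) and log2(TPM + 1) (0.12), on the UIR libraries alone (0.24) and with the replicate block (0.25); without 1 library its log2 fold change was 0.22 to 0.32. Same-numbered PTCKO UIR and WT UIR libraries had correlations of -0.077, -0.089 and 0.021 in their deviations from the group means. Differently numbered pairs ran from -0.21 to 0.25, so these values cannot decide whether same-numbered libraries shared handling. With the replicate block 1327 genes were higher and 656 lower.

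The neutrophil list's median was 0.43, but -0.012 under the stricter filter, which leaves fewer members. Of the other list medians over all settings, 1478 stayed within the spread between libraries and 81 moved. Of the named genes other than Wwp2, those called kept direction in every setting with a value; 35 values lost and 19 gained a call. Direction changed in 24 values of 8 genes that did not pass, all still not passing. Without 1 library the values were -0.27 to 0.41 for Umod, -0.077 to 0.071 for Cd74, -0.041 to 0.14 for H2-Aa, -0.083 to 0.34 for Nnt, -0.13 to 0.0031 for Clcn5, -0.69 to 0.51 for Slc22a7 and -0.20 to 0.091 for Slc36a2. With limma on log2(TPM + 1) Umod was at -0.029, Nnt at -0.029 and H2-Aa at -0.079, and H2-Aa was at -0.018 without scaling factors and -0.024 with limma on log2(FPKM + 1) and log2(FPKM + 0.1). After quantile normalisation Cd74 was at 0.022, Slc22a7 at 0.012 and Spp1 at -0.11, and Cd74 was at 0.0072 with RLE size factors and with DESeq2. With 3 libraries per group, genes that did not pass are not shown to be alike.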

Other observations

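The following groups were looked at after their values were seen and have no test of the list. Heat shock and endoplasmic reticulum chaperone genes had 2 of 19 members lower (10.5%, against 4.50% of all genes) and 0 higher in PTCKO UIR than in WT UIR (median log2 fold change -0.21), with 17 of 19 fold changes below 0; the lower count was 5 without PTCKO Sham 1 and 0 without PTCKO UIR 1, PTCKO UIR 3, WT UIR 1 or WT UIR 3. Cell cycle genes had 2 of 26 lower (7.69%, against 4.50% of all genes) and 0 higher (median -0.10). Proteasome genes had 1 of 31 higher (3.23%, against 9.30% of all genes; median 0.19), and 11 higher without PTCKO UIR 2.

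B3gnt3 and Cyp4f18, both among the largest rises, lie 285855 bases apart on chromosome 8 (GRCm38.p6). The 5 tested genes between them had 0 calls by edgeR, with log2 fold changes of -0.15 to 0.27.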
